A study of Mus musculus with 36 samples.

Results

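The miR-181 family of mouse microRNAs (miRNAs) was followed through 36 small RNA libraries of CD4 T cells. The family was taken as the 10 mature names that carry miR-181 in their name on either arm of the hairpin, out of 1966 mature names in the tables. They are mmu-miR-181a-5p, mmu-miR-181b-5p, mmu-miR-181c-5p and mmu-miR-181d-5p, and on the other arm mmu-miR-181a-1-3p, mmu-miR-181a-2-3p, mmu-miR-181b-1-3p, mmu-miR-181b-2-3p, mmu-miR-181c-3p and mmu-miR-181d-3p, written below without the species prefix. The cells were sorted from spleen of C57BL/6J mice as CD4+ TCRb+ cells and either taken as naive cells or grown towards the T helper 2 (Th2) fate. The first experiment compared AGO134-/- cells, which lack AGO1, AGO3 and AGO4 and are called AGO134 knockout here, with wild-type (WT) cells, from littermates by the text of the series. It held 4 knockout and 4 WT naive libraries, 4 knockout and 4 WT libraries from day 7 of culture, and 3 knockout and 3 WT libraries from day 14. The labels name no driver that restricts this deletion to T cells. The second experiment compared CD4Cre;R26LSLeYFP;AGO2f/f cells (AGO2 knockout) with CD4Cre;R26LSLeYFP cells (Cre), so that both groups carry a Cre driven by the CD4 promoter and a Cre-dependent eYFP reporter. It held 4 AGO2 knockout and 3 Cre naive libraries, and 4 AGO2 knockout and 3 Cre Th2 libraries, taken on day 5 by their own labels but on day 7 by the text of the series. The labels give no ages. Nor do they tell whether each replicate came from its own animal, so a p-value here measures only how far the samples of a group differ, which may be technical.

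A miRNA gene is transcribed into a hairpin, which Drosha and then Dicer cut to a short duplex of a 5p and a 3p strand. An Argonaute protein (AGO) takes up the duplex, keeps the guide strand, and the passenger strand is usually lost. For miR-181 hairpins the 5p strand is the usual guide. In mouse thymocytes miR-181a-5p is known to raise sensitivity to T cell receptor signals by repressing phosphatases that dampen them, and its level falls as T cells mature.

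The mature sequences show which members share targets and which can be told apart by locus. All 10 were found in the RefSeq annotation of GRCm38.p6 and are written here 5′ to 3′, with the seed (bases 2 to 8) in capitals. The 5p strands share 1 seed.
miR-181a-5p: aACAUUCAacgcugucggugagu
miR-181b-5p: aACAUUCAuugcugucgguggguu
miR-181c-5p: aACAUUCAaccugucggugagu
miR-181d-5p: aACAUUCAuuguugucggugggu
miR-181a-1-3p: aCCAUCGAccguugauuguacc
miR-181c-3p: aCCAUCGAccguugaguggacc
miR-181a-2-3p: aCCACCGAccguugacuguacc
miR-181d-3p: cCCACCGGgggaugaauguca
miR-181b-1-3p: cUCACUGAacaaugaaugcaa
miR-181b-2-3p: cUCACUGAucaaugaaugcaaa

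The seed ACAUUCA occurred in these 4 mature names alone among the mature names of the RefSeq table. Counted from 1 at the 5′ end, miR-181b-5p differs from miR-181a-5p by A9U, C10U and A21G and is 1 base longer. miR-181d-5p differs from miR-181b-5p by C12U, and miR-181c-5p is miR-181a-5p without the G at position 11. The 3p strands are more diverse. miR-181a-1-3p and miR-181c-3p share the seed CCAUCGA and differ by U16G and U19G. miR-181a-2-3p differs from miR-181a-1-3p by U5C and U16C, the first of which lies in the seed. The treatment of reads that match several members is unknown here, so separate values of the near-identical 5p strands are uncertain.

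The family lies at 3 loci. Mir181a-1 (chr1:137966468-137966529, from the first base of the 5p strand to the last of the 3p strand) and Mir181b-1 (chr1:137966650-137966710) lie on the plus strand within an intron of the noncoding transcript Gm4258, and Mir181b-1 also within an exon of the lincRNA A430106G13Rik, by the GENCODE annotation of GRCm38. Mir181a-2 (chr2:38852741-38852806) and Mir181b-2 (chr2:38853845-38853904) lie on the plus strand, opposite an intron of Nr6a1, and Mir181b-2 also opposite an exon of the unclassified gene Gm44144. Mir181d (chr8:84178720-84178781) and Mir181c (chr8:84178885-84178945) lie on the minus strand in an intron of Nanos3. The 5p strands of the a-1 and a-2 hairpins are identical, so miR-181a-5p counts cannot be assigned to a locus, whereas the 3p strands can. The hairpins of both loci are shown with the mature strands in capitals, because the results separate them by the 3p strand.
Mir181a-1: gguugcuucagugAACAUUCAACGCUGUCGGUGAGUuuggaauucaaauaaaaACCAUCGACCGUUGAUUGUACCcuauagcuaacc
Mir181a-2: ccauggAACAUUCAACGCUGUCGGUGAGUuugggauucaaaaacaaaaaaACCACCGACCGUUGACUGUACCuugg

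Libraries of the first experiment held 64264 to 273724 miRNA counts and those of the second 596 to 58357. At each stage of the first experiment depth was lower in knockout libraries, at 64264 to 195122 in naive knockout against 196357 to 243748 in naive WT. Levels are counts per 1000000 miRNA counts (CPM) after TMM scaling. Before that scaling a count of 0 allows up to 11.0 to 46.7 CPM in the first experiment (3 counts, counting error only). Changes are log2 fold changes with their standard error (SE) from edgeR's quasi-likelihood test, with p-values adjusted by Benjamini and Hochberg over all names tested, and "called" means an adjusted p under 0.05. A further scaling divides by the sum of the entries named STD in the tables, which name no miRNA. Of the 10 members, 9 passed the filter on low counts in the first experiment and 2 in the second. In these bulk samples fewer cells of a type and less RNA per cell cannot be told apart. Tables of miRNAs hold no Argonaute transcript, so nothing here checks the genotype of a library. The labelled cell type was checked on 6 miRNAs of T cells, of which 1 is miR-181a-5p itself. The other 5 summed to at least 40805 CPM in every library of the first experiment and to at least 16158 CPM in every library of the second.

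Markers of other cells changed between the stages of the first experiment. The 2 myeloid miR-223 strands summed to 0 to 28.3 CPM in naive knockout and 18.6 to 42.6 CPM in naive WT libraries, and to at most 4.73 CPM in Th2 libraries of either genotype, with no count at day 7. The 4 names of red cells and platelets summed to 247 to 560.4 CPM in naive knockout and 283 to 804 CPM in naive WT, and to 81.6 to 131 CPM in day 7 knockout and 66.6 to 105 CPM in day 7 WT. The defining red cell miRNA miR-451a had no count in naive knockout or in any Th2 library. The 5 names of epithelium, liver and muscle had lower sums at each later stage. They stood at 1687 to 2364 CPM in naive knockout and 1581 to 1833 CPM in naive WT. At day 7 they stood at 975 to 1319 CPM in knockout and 941 to 1374 CPM in WT, and at day 14 at 408 to 514 CPM in knockout and 333 to 382 CPM in WT. Most of the naive and day 14 sums was miR-200c-3p alone. That name averaged 1809 CPM in naive knockout and 1359 CPM in naive WT. Its averages were 546 CPM in knockout and 469 CPM in WT at day 7, and 409.9 and 316 CPM at day 14. The fall of the sums thus does not show that the other names of this list fell. The 6 endothelial and stromal names summed higher after activation. Their sums reached 570.4 CPM in naive knockout and 358 CPM in naive WT. At day 7 they were 668 to 996 CPM in knockout and 862 to 1030.4 CPM in WT. Not every name of this list rose, since miR-145a-5p had counts in naive knockout but none in day 7 knockout libraries. These shifts came with activation, some down and some up, while the members described next fell. Their part in the members' change was not tested.

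Naive CD4 T cells of the first experiment held much miR-181a-5p. It was the fourth most abundant mature name in naive AGO134 knockout and the third in naive WT cells. The 4 family 5p strands together took 5.45% to 7.08% of all miRNA counts in naive AGO134 knockout libraries and 5.41% to 5.68% in naive WT libraries. Within that pool miR-181a-5p made up 83.3% ± 5.52 in knockout and 75.2% ± 2.35 in WT (SD, n = 4 each). miR-181b-5p made up 10.6% ± 3.02 in knockout and 15.4% ± 1.21 in WT, and miR-181c-5p and miR-181d-5p the rest. After activation the pool shrank. It was 0.68% to 0.825% in day 7 knockout and 1.08% to 1.11% in day 7 WT libraries, and 0.36% to 0.493% in day 14 knockout and 0.263% to 0.361% in day 14 WT libraries. miR-181a-5p then ranked 47th in knockout and 36th in WT at day 7, and 65th in knockout and 78th in WT at day 14. In the shallow second experiment the naive level was lower. miR-181a-5p ranked 13th in naive AGO2 knockout and 32nd in naive Cre cells, and the 5p pool was 0.483% to 1.73% in naive AGO2 knockout and 0.186% to 0.503% in naive Cre libraries. No test was made between the experiments.

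The members fell on Th2 culture. From naive to day 7, 34.3% of the 382 names tested fell in AGO134 knockout and 36.9% in WT cells, with median changes of 0.08 in knockout and 0.11 in WT on the log2 scale. All 9 tested members were called lower in both genotypes. That count is no measure of how widely the family fell, since miR-181a-2-3p, miR-181b-1-3p and miR-181d-3p passed the filter on low counts through their naive libraries and so had to be lower at Th2. The other 6 pass it in the Th2 libraries alone. Of the 5p strands, miR-181a-5p fell most in knockout, by 3.37 (SE 0.17, edgeR adjusted p = 2.45e-16), and in WT it fell by 2.51 (SE 0.16, edgeR adjusted p = 6.15e-14). miR-181b-5p fell by 2.98 (SE 0.13) in knockout and fell by 2.9 (SE 0.12) in WT. miR-181c-5p fell by 2.58 (SE 0.19) in knockout and fell by 2.63 (SE 0.18) in WT. miR-181d-5p changed least among the 5p strands and fell by 1.20 (SE 0.15) in knockout and fell by 1.64 (SE 0.14) in WT.

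Between day 7 and day 14 the fall went on for most members. In knockout 7 of 9 members were called lower and in WT 6 of 9, against 23.3% of all names tested in knockout and 24.9% in WT. The knockout count includes miR-181a-2-3p, at 6 counts over the day 7 and 0 over the day 14 libraries. From naive to day 14 the 6 members that pass the filter in Th2 libraries were called lower in knockout and in WT, where 33.2% of names were in knockout and 37.2% in WT. miR-181b-5p fell by 1.03 (SE 0.14, edgeR adjusted p = 1.31e-06) in knockout and fell by 2.32 (SE 0.15, edgeR adjusted p = 4.08e-13) in WT. miR-181a-5p fell by 0.72 (SE 0.17, edgeR adjusted p = 0.00124) in knockout and fell by 1.65 (SE 0.18, edgeR adjusted p = 1.47e-08) in WT. Without day 14 knockout replicate 4 the knockout count was 4, and neither miR-181a-5p (-0.62, edgeR adjusted p = 0.0506) nor miR-181a-1-3p (-0.71, edgeR adjusted p = 0.0775) was called there. miR-181d-3p, the passenger strand of the d hairpin, stayed at 9.46 to 32.6 CPM in day 14 knockout and 14.2 to 18.9 CPM in day 14 WT libraries. At day 7 it stood at 16.2 to 32.9 CPM in knockout and 6.01 to 22.3 CPM in WT libraries, so the ranges of both days overlap.

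**Figure D1:**
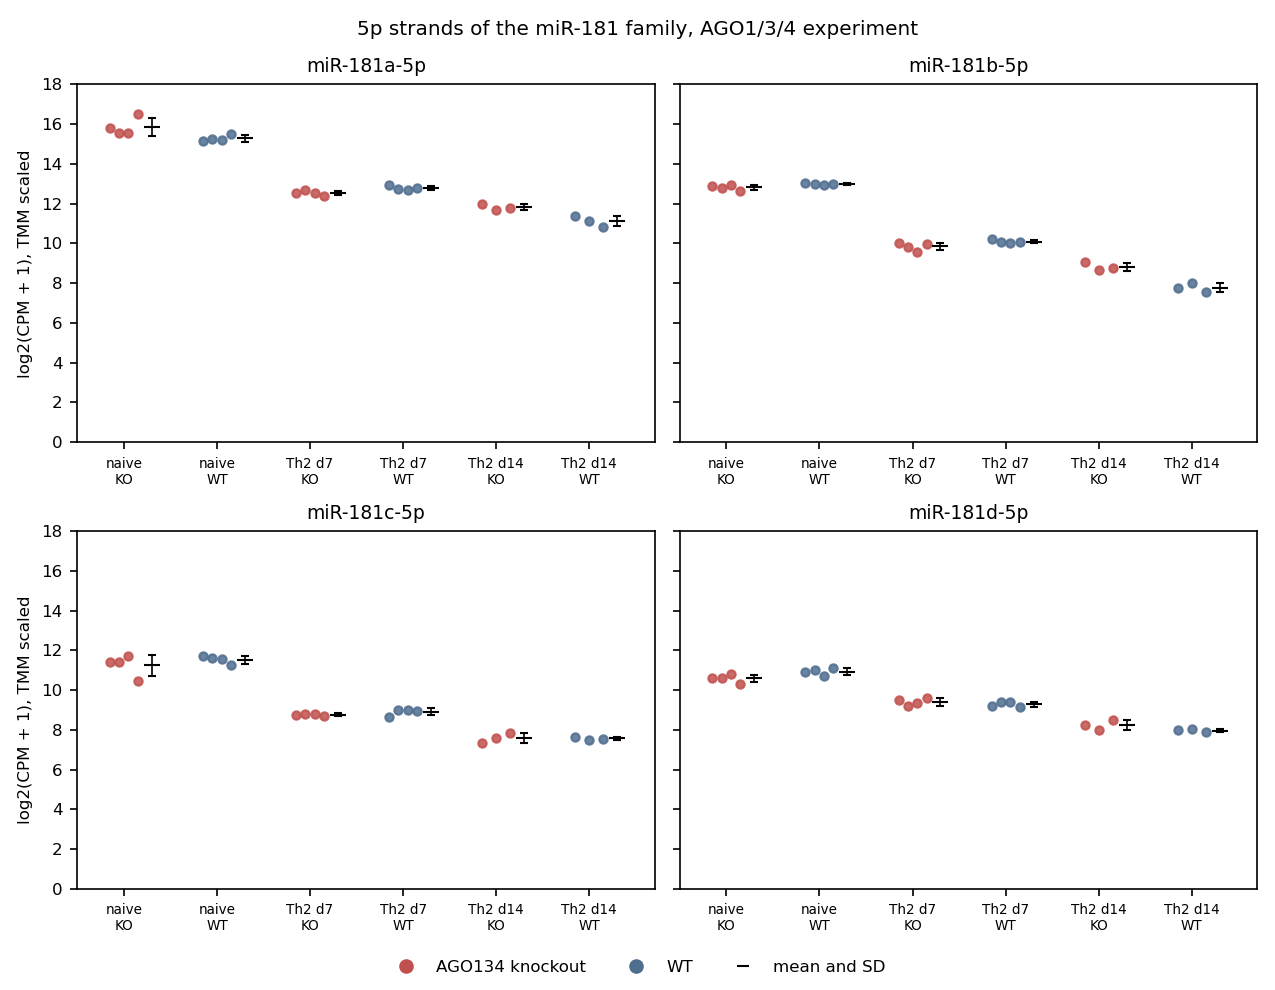
Levels of the 4 family 5p strands in each library of the first experiment, as log2(CPM + 1) after TMM scaling. Points are libraries (red, AGO134 knockout; blue, WT) and the bar beside them is the mean with its SD; all 4 strands are lower at day 7 than in naive cells in both genotypes.

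The 3p strands parted on activation. The change of the 3p strand against the 5p strand with activation was among the features for which the family was chosen, so it is given without a test. miR-181a-2-3p, the 3p strand of the chromosome 2 hairpin, was lost almost entirely, whereas miR-181a-1-3p of the chromosome 1 hairpin remained. miR-181a-2-3p had 242, 260, 348 and 57 counts in the naive knockout libraries and 892, 679, 888 and 617 in the naive WT libraries. At day 7 it had 1, 1, 4 and 0 counts in knockout and 0, 4, 1 and 1 in WT. At day 14 no knockout library had a count, and the WT libraries had 0, 1 and 1. The naive and Th2 counts do not overlap in either genotype. This strand passed the filter through its naive libraries and so had to be lower at Th2. The share of all names that separate between naive and Th2 libraries is not given here, so the separation is a description only.

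The same libraries kept miR-181a-1-3p. It had 167, 195, 214 and 36 counts in naive knockout libraries and 868, 686, 515 and 362 in naive WT libraries. At day 7 it had 23, 25, 31 and 21 counts in knockout and 42, 49, 60 and 59 in WT. At day 14 it had 17, 15 and 18 counts in knockout and 17, 10 and 15 in WT. For each 100 miR-181a-1-3p counts there were thus 148 miR-181a-2-3p counts in naive knockout and 127 in naive WT cells, 6 in knockout and 2.86 in WT at day 7, and 0 in knockout and 4.76 in WT at day 14. This pair was set side by side after its values were seen.

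Per miRNA count, miR-181a-2-3p was 586 times as abundant in naive as in day 7 WT cells (6 counts at day 7, 95% counting interval 269 to 1599), and in knockout the interval of the same ratio was 83 to 495 (6 counts at day 7). At day 14 the ratio of naive to Th2 was at least 333 in knockout, computed against a floor of 3 counts over the group. In WT it was 1348 at day 14 (2 counts, interval 373 to 11135). Intervals and floors cover counting error only. The fitted change of miR-181a-1-3p from naive to day 7 was far smaller, at -2.96 (SE 0.21) in knockout and -3.88 (SE 0.19) in WT on the log2 scale.

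miR-181c-3p went the other way against its 5p strand. Per 100 miR-181c-5p counts there were 10.2, 12.2, 9.7 and 11.1 miR-181c-3p counts in the naive knockout libraries and 19.1, 19.8, 16.1 and 19.1 in the naive WT libraries. At day 7 there were 52.6, 38.6, 53.7 and 40.4 in knockout and 52.1, 47.2, 47.1 and 59.4 in WT. At day 14 there were 38.2, 48.3 and 46.4 in knockout and 67.2, 58.3 and 61.5 in WT. Every Th2 library lies above every naive library of its genotype. From naive to day 7 the log2 change of miR-181c-3p less that of miR-181c-5p was 2.06 in knockout and 1.47 in WT. Of 92 hairpins outside the family, 89 had a lower value in knockout and 79 in WT. Their value is the minor arm (the one with fewer counts) less the major arm, with medians of 0.14 in knockout and 0.26 in WT. From naive to day 7 miR-181c-3p fell by 0.52 (SE 0.21, edgeR adjusted p = 0.0268) in knockout and fell by 1.15 (SE 0.17, edgeR adjusted p = 4.23e-07) in WT, less than any other member. The knockout call was lost in 4 of the fits that left out 1 library, without naive replicate 2 (-0.46, edgeR adjusted p = 0.0838) or 3 (-0.44, edgeR adjusted p = 0.0961) or day 7 replicate 2 (-0.44, edgeR adjusted p = 0.0814) or 4 (-0.46, edgeR adjusted p = 0.0579), and with scaling to the STD entries its sign was turned, at 0.23, where all names had a median of 0.80.

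Of the remaining 3p strands, miR-181d-3p fell by 2.95 (SE 0.36) from naive to day 7 in knockout and fell by 3.47 (SE 0.3) in WT. These changes rest on 14 counts over the day 7 knockout and 20 over the day 7 WT libraries. The strand passed the filter through its naive libraries and so had to be lower at Th2. Its count per 100 miR-181d-5p counts was 10.2 in naive, 3.12 in day 7 and 6.81 in day 14 knockout cells, and 9.69, 2.62 and 6.73 in the WT cells of the same stages, each summed over the libraries of a group. miR-181b-1-3p was scarce and had 29 counts over the naive knockout and 85 over the naive WT libraries, 4 in knockout and 9 in WT at day 7, and 5 in knockout and 1 in WT at day 14. miR-181b-2-3p, from the same chromosome 2 cluster as miR-181a-2-3p, had 3 counts in all 36 libraries, 2 in 1 naive knockout library and 1 in 1 naive WT library.

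**Figure D2:**
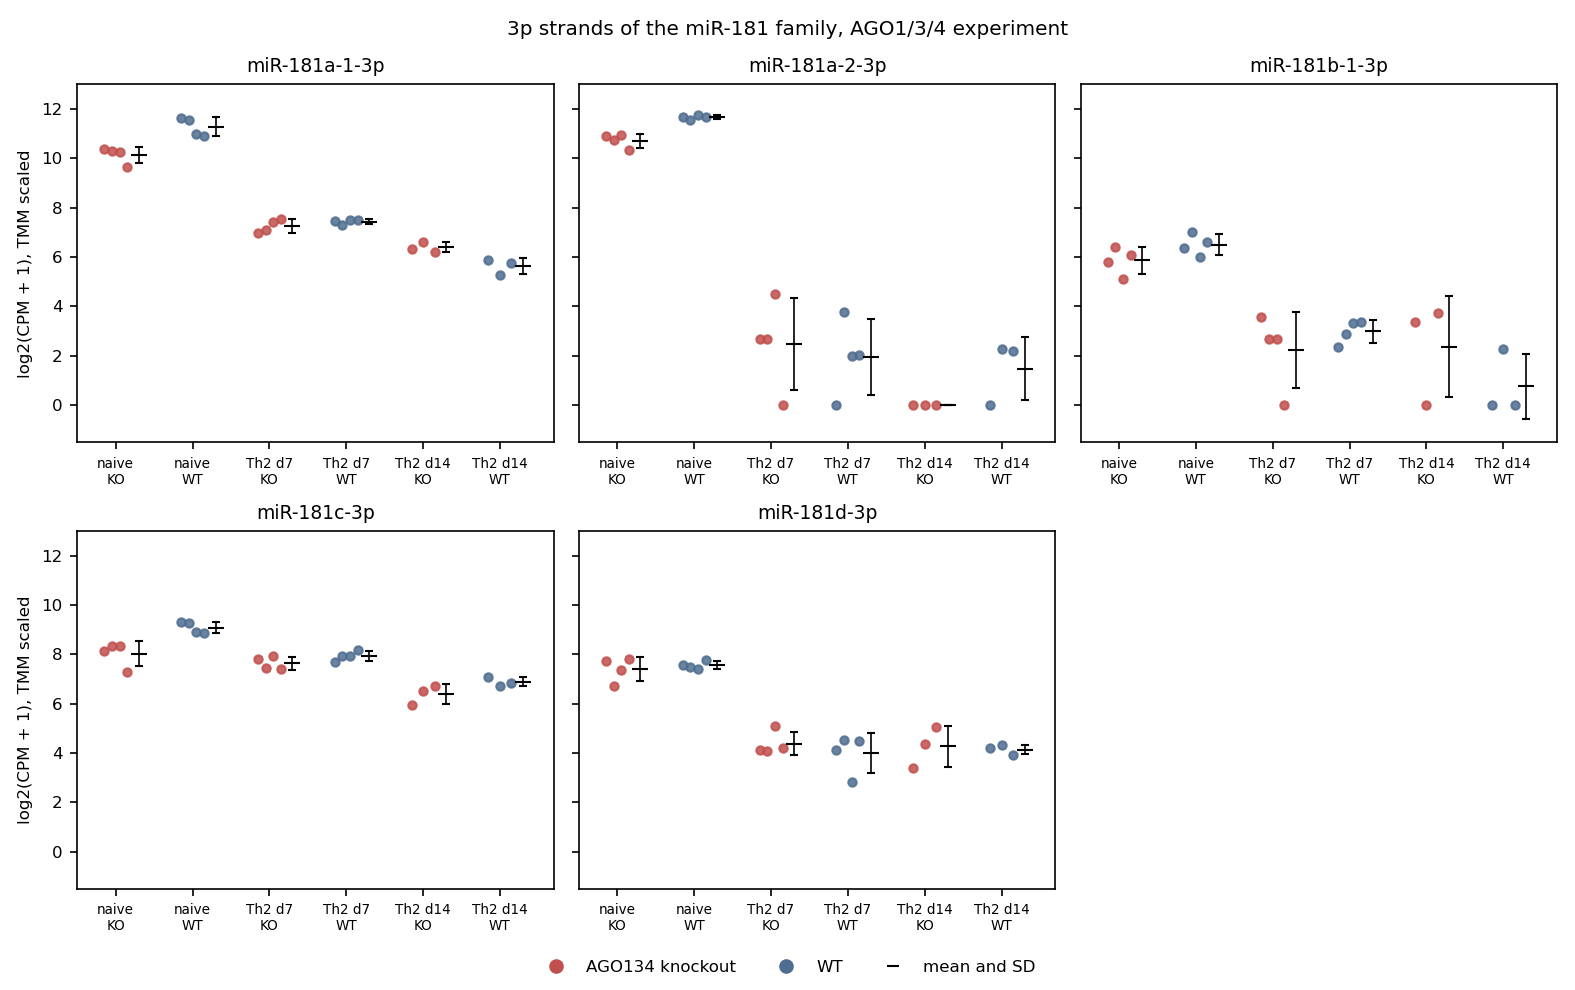
Levels of 5 family 3p strands in each library of the first experiment, as log2(CPM + 1) after TMM scaling, with the mean and SD beside the points (red, AGO134 knockout; blue, WT). miR-181a-2-3p has at most 4 counts in any Th2 library, while miR-181a-1-3p and miR-181c-3p remain at every stage.

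In naive cells, loss of AGO1, AGO3 and AGO4 went with less of 3 passenger strands. miR-181a-1-3p, miR-181a-2-3p and miR-181c-3p were lower in AGO134 knockout than in WT cells. The main guide strand miR-181a-5p was higher, except with scaling to the STD entries, where its sign was turned. Of the 9 members tested, 3 were called lower and 1 higher, where 10.2% of all 382 names were lower and 8.12% higher. The median member change was -0.32, against -0.05 for all names.

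miR-181a-1-3p stood at 1325, 1278, 1211 and 809.9 CPM in naive knockout libraries, against 3233, 3029, 2029.9 and 1926 CPM in naive WT libraries. miR-181a-2-3p stood at 1919, 1705, 1969.8 and 1282 CPM in naive knockout, against 3323, 2998, 3500.1 and 3283 CPM in naive WT. miR-181c-3p stood at 278, 328, 328 and 157 CPM in naive knockout, against 637, 618, 485 and 463 CPM in naive WT. For these 3 strands every knockout library lay below every WT library. The share of all names that separate in this way is not given here, so the separation is a description only. The log2 fold changes were -1.11 (SE 0.17, edgeR adjusted p = 3.82e-05) for miR-181a-1-3p, -0.91 (SE 0.17, edgeR adjusted p = 0.000769) for miR-181a-2-3p and -0.92 (SE 0.18, edgeR adjusted p = 0.0011) for miR-181c-3p.

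miR-181a-5p stood at 57409, 48083, 47587 and 93340.1 CPM in naive knockout libraries, against 36555, 38891, 38107 and 46582 CPM in naive WT. The groups do not overlap, and the fourth knockout library, which is also the shallowest of the experiment, is far above the others. The log2 fold change was 0.62 (SE 0.16, edgeR adjusted p = 0.00543), and 0.38 without that library (edgeR adjusted p = 0.0291). Against library size alone the change was 0.27 (edgeR adjusted p = 0.113) and with the naive groups fitted alone 0.69 (edgeR adjusted p = 0.114), so that the call was lost in both. Scaling to the STD entries turned it to -0.26 while all names moved to a median of -0.77, so that miR-181a-5p stood 0.51 above that median.

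Of the other 5p strands, miR-181b-5p stood at 7591, 7199, 7896 and 6367 CPM in naive knockout and 8381, 8150.0, 7859 and 8184 CPM in naive WT. It had a log2 fold change of -0.16 (SE 0.11, edgeR adjusted p = 0.359). miR-181d-5p had one of -0.32 (SE 0.14, edgeR adjusted p = 0.108), and miR-181b-1-3p one of -0.64 (SE 0.34, edgeR adjusted p = 0.223). miR-181c-5p stood at 1417 to 3385 CPM in knockout and 2421 to 3341 CPM in WT, and miR-181d-3p at 105 to 225 CPM in knockout and 169 to 218 CPM in WT. None of these 5 was called.

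Set against each other within a library, the strands need no scaling. The log2 ratio of miR-181a-1-3p to miR-181a-5p counts averaged -5.7 ± 0.76 in naive knockout and -4.0 ± 0.5 in naive WT (SD, n = 4 each). For miR-181a-2-3p to miR-181a-5p the averages were -5.12 ± 0.71 in knockout and -3.61 ± 0.19 in WT, and for the c hairpin -3.18 ± 0.16 in knockout and -2.43 ± 0.14 in WT. In all 3 the knockout libraries lay below the WT libraries without overlap. The a-1 and a-2 ratios share the same miR-181a-5p counts, so they are not independent of each other. The two-sided exact permutation p was 0.0286 for each, the smallest that 4 against 4 libraries allow. It was 0.143 after adjustment over 15 hairpin and stage pairs of both experiments. With every library of the experiment thinned to 64264 miRNA counts the differences for a-1, a-2 and c were -1.55, -1.47 and -0.76, against -1.7, -1.51 and -0.75 at full depth. The ratios of the b-1 and d hairpins overlapped between the genotypes.

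Among the 92 hairpins outside the family with both arms counted, 46 had a minor arm (the one with fewer counts) that was lower relative to the major arm in naive knockout than in WT, with a median difference of -0.04 on the log2 scale. The a-1 hairpin stood at -1.73, with 1 of the 92 lower, and the a-2 hairpin at -1.53, with 2 lower. Both were set against the same miR-181a-5p change. The c hairpin stood at -0.72, with 16 lower.

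The balance of miR-181b-5p and miR-181a-5p differed as well. There were 13.2, 15, 16.6 and 6.82 miR-181b-5p counts per 100 miR-181a-5p counts in naive knockout libraries and 22.9, 21, 20.6 and 17.6 in naive WT libraries, with no overlap. The mean log2 ratio was -3.03 ± 0.58 in knockout and -2.29 ± 0.16 in WT (SD, n = 4 each). The two-sided exact permutation p was 0.0286, and 0.143 after adjustment over the 5 comparisons of knockout with control in both experiments. Without the shallow knockout library the difference was -0.46, against -0.74 with it.

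**Figure D3:**
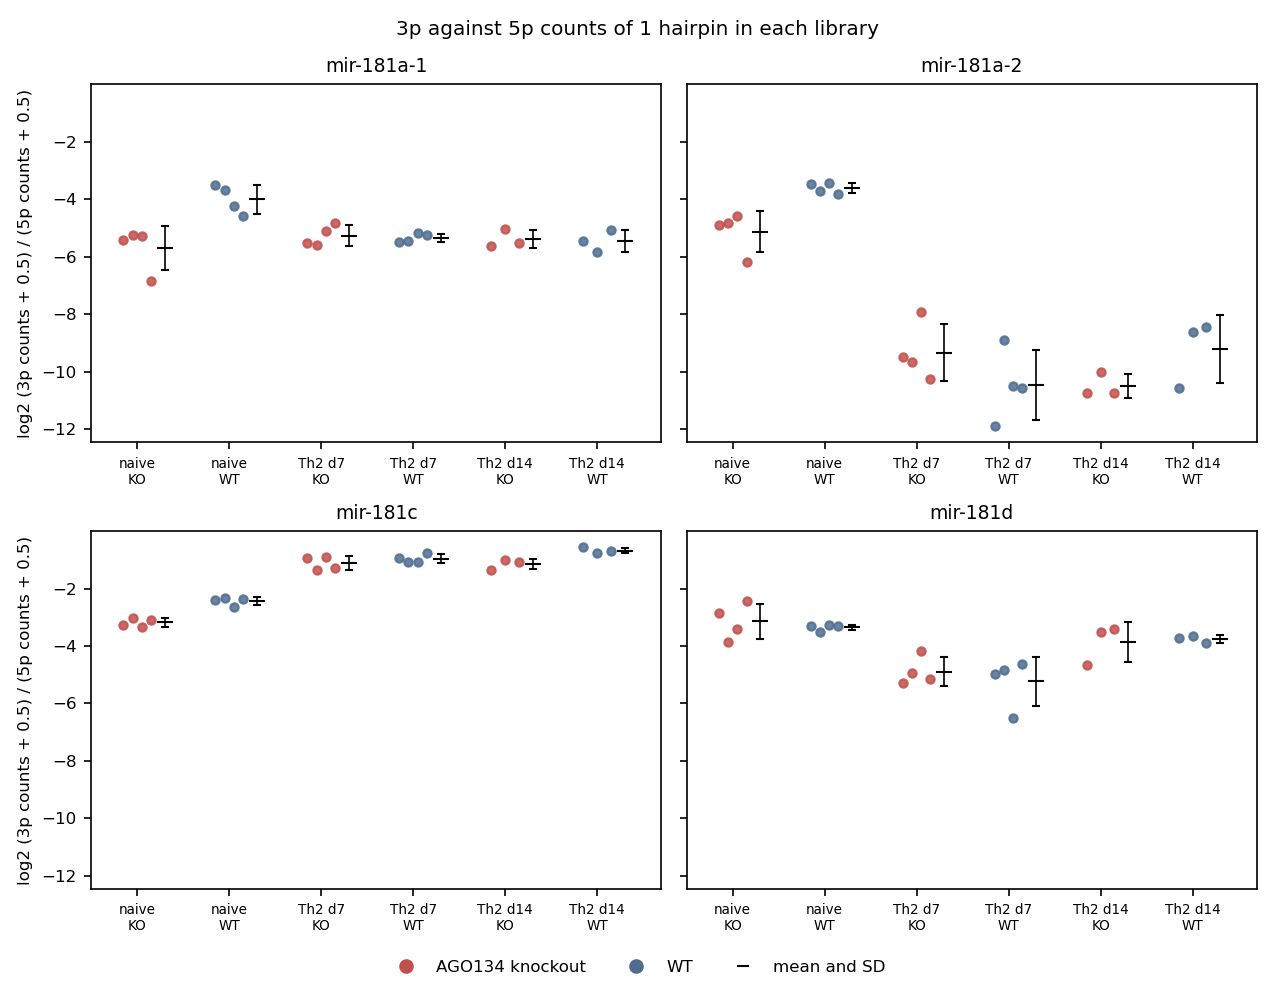
Log2 ratio of 3p to 5p counts of 4 hairpins in each library of the first experiment, with 0.5 added to each count; points are libraries and bars the mean with SD (red, AGO134 knockout; blue, WT). Naive knockout libraries lie below naive WT libraries for a-1, a-2 and c, and both genotypes meet at day 7 for a-1 and c. The a-1 and a-2 ratios share the same miR-181a-5p counts.

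At day 7 no member was called between the genotypes by edgeR or by DESeq2, where 14.4% of all names were called by edgeR and 95 of 382 had an unadjusted p under 0.05. This count depended on the scaling. Against library size alone 2 members were called lower in knockout, and with scaling to the STD entries 3, where all names had medians of -0.31 and -0.63. miR-181a-5p stood at 5899, 6582, 5969 and 5376 CPM in day 7 knockout, against 7818, 6833, 6582 and 6979 CPM in day 7 WT. The lowest WT value and the highest knockout value were alike, and the log2 fold change was -0.24 (SE 0.16, edgeR adjusted p = 0.381). miR-181b-5p had a change of -0.24 (SE 0.12, edgeR adjusted p = 0.222), miR-181a-1-3p of -0.19 (SE 0.22, edgeR adjusted p = 0.667) and miR-181c-3p of -0.28 (SE 0.19, edgeR adjusted p = 0.387). miR-181d-5p stood at 584 to 781 CPM in knockout and 574 to 679 CPM in WT.

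At day 14 miR-181b-5p and miR-181a-5p were higher in the knockout, and the other 7 tested members were not called. Of the 9 members tested, 2 were called, both higher, where 8.90% of all names were. miR-181b-5p stood at 525, 397 and 428 CPM in day 14 knockout, against 215, 253 and 188 CPM in day 14 WT. miR-181a-5p stood at 4048, 3322 and 3465 CPM in day 14 knockout, against 2644, 2237 and 1843 CPM in day 14 WT. Neither strand overlaps between the groups, and the share of all names without overlap is not given here.

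The log2 fold changes at day 14 were 1.05 (SE 0.16, edgeR adjusted p = 2.28e-05) for miR-181b-5p and 0.69 (SE 0.19, edgeR adjusted p = 0.0081) for miR-181a-5p. The call of miR-181a-5p was lost without WT replicate 2 (0.69, edgeR adjusted p = 0.0693) or 3 (0.55, edgeR adjusted p = 0.136) and with DESeq2 size factors (0.64, edgeR adjusted p = 0.0621). With scaling to the STD entries neither was called, at 0.61 for miR-181b-5p and 0.25 for miR-181a-5p, where all names had a median of -0.44. miR-181a-1-3p had a change of 0.71 (SE 0.33, edgeR adjusted p = 0.126) and miR-181c-3p of -0.45 (SE 0.27, edgeR adjusted p = 0.261). miR-181c-5p had a median of 189 CPM in knockout and 184 CPM in WT, and miR-181d-5p stood at 254 to 363 CPM in knockout and 237 to 261 CPM in WT.

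The b to a balance at day 14 lay the other way from that in naive cells. There were 13, 11.9 and 12.4 miR-181b-5p counts per 100 miR-181a-5p counts in knockout libraries, against 8.12, 11.3 and 10.2 in WT libraries. The mean log2 ratio was -3.0 ± 0.06 in knockout and -3.34 ± 0.24 in WT (SD, n = 3 each; two-sided exact permutation p = 0.1, the smallest that 3 against 3 allow, adjusted p = 0.25). For the c hairpin the log2 ratio of 3p to 5p was -1.16 ± 0.17 in knockout and -0.68 ± 0.1 in WT, without overlap and at the same exact p (adjusted p = 0.375).

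Tests of whether the knockout effect differed between stages named 3 members. The effect on miR-181b-5p was 1.21 higher at day 14 than in naive cells (SE 0.20, edgeR adjusted p = 0.000141) and 1.29 higher than at day 7 (SE 0.21, edgeR adjusted p = 7.11e-05). The effect on miR-181a-1-3p was 1.82 higher at day 14 than in naive cells (SE 0.37, edgeR adjusted p = 0.00155). The effect on miR-181a-5p was 0.86 lower at day 7 than in naive cells (-0.86, SE 0.22, edgeR adjusted p = 0.031) and 0.93 higher at day 14 than at day 7 (SE 0.24, edgeR adjusted p = 0.0102). Of 382 names, 2.36% were called for day 7 against naive, 6.81% for day 14 against naive and 12.0% for day 14 against day 7. For miR-181a-1-3p at day 7 against naive the difference was 0.92 (SE 0.28, edgeR adjusted p = 0.0705), and without naive WT replicate 3 (0.99, edgeR adjusted p = 0.044) or 4 (1.03, edgeR adjusted p = 0.0441) it was called.

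The stage differences of miR-181a-5p kept their sign in every fit that left out 1 library, but their calls did not always hold. In these fits the difference was -1.04 to -0.64 for day 7 against naive and 0.85 to 1.11 for day 14 against day 7. That between day 7 and naive was not called without naive WT replicate 1 or 2, day 7 WT replicate 1, 3 or 4, or day 7 knockout replicate 4, with changes of -0.94 to -0.8 and edgeR adjusted p-values of 0.0532 to 0.0851. That between day 14 and day 7 was not called without day 14 WT replicate 3 (0.85, edgeR adjusted p = 0.0892).

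**Figure D4:**
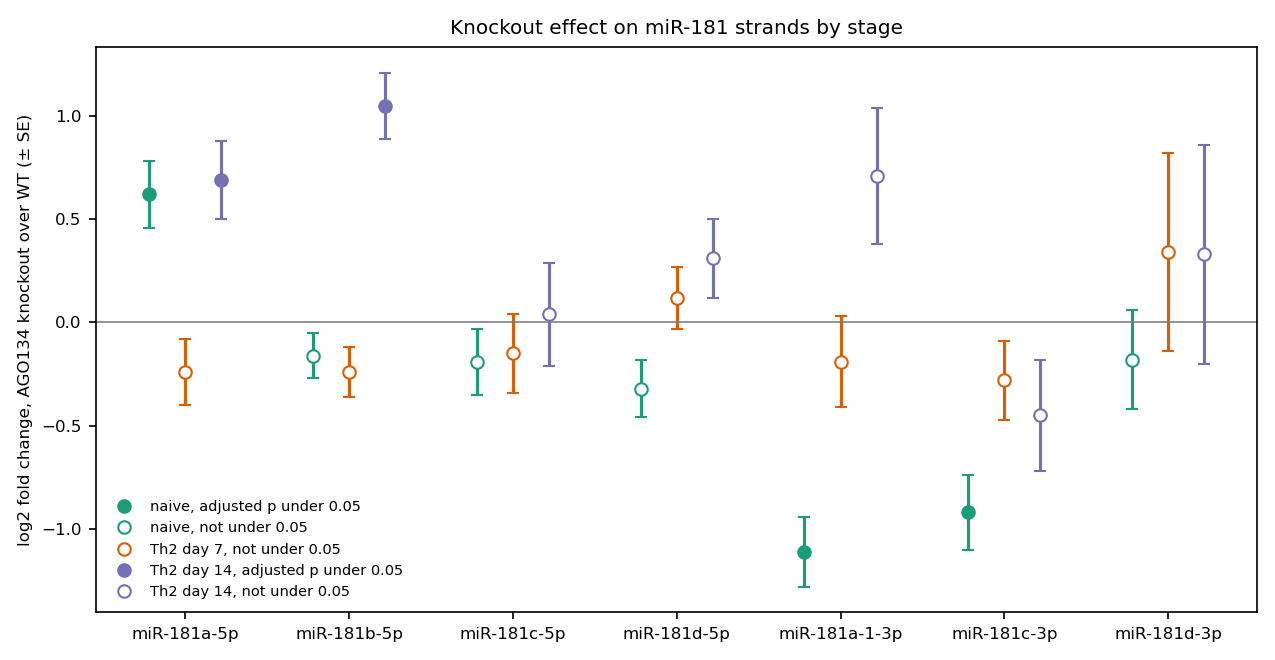
Log2 fold change of AGO134 knockout over WT for 7 strands at each stage, with SE from edgeR; filled points have an adjusted p under 0.05, and miR-181a-2-3p and miR-181b-1-3p, with few Th2 counts, are not drawn. The 2 naive 3p strands with filled points lie near -1, and miR-181b-5p reaches 1.05 at day 14.

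Other miRNAs known from T cells were read from a list of 14 names outside the family. In naive knockout cells 6 of the 14 were called higher and 0 lower, where 8.12% of names were higher, with a median change of 0.35, against -0.05 for all names. Against library size alone 3 were higher and 0 lower, with a median of 0.05, and with scaling to the STD entries this turned to 0 higher and 6 lower, with a median of -0.41. The called names included miR-150-5p, an abundant miRNA of resting lymphocytes (0.68, SE 0.15, edgeR adjusted p = 0.00236), and miR-146a-5p, which limits inflammatory signalling in T cells (0.53, SE 0.12, edgeR adjusted p = 0.00284). Day 7 cells had 6 higher and 0 lower, where 8.64% of names were higher, among them miR-27a-3p (0.69, SE 0.11, edgeR adjusted p = 0.000477). Day 14 cells had 4 higher and 1 lower, where 8.90% of names were higher and 10.7% lower. The lower one was miR-142a-3p (-0.74, SE 0.23, edgeR adjusted p = 0.0218). With scaling to the STD entries the list had 0 higher and 2 lower at day 7 and likewise at day 14, with medians of -0.25 and -0.3. The 5 T cell miRNAs used to check the cell type, miR-181a-5p left out, also stood higher in naive knockout, summing to 91976 to 122384 CPM in knockout and 63381 to 75375 CPM in WT. Their part in the change of miR-181a-5p was not tested.

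From naive to day 7 in WT cells the list went both ways, with 6 of 14 called higher and 5 lower, where 39.5% of names were higher and 36.9% lower. Higher were miR-21a-5p, known to rise in activated T cells (1.51, SE 0.13, edgeR adjusted p = 1.46e-11), and miR-27a-3p (1.24, SE 0.12, edgeR adjusted p = 1.19e-10). In knockout cells 5 of the list were higher and 5 lower over the same interval, where 39.8% of names were higher and 34.3% lower. With scaling to the STD entries 9 were higher in each genotype and at most 1 lower.

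The names outside the family whose levels most resembled miR-181a-5p were miR-200c-3p (Pearson r = 0.966), miR-466c-5p (r = 0.965) and miR-378a-3p (r = 0.96), on log2(CPM + 1) over the 22 libraries among 247 names with a mean of at least 100 CPM. miR-378a-3p averaged 8412 ± 813 CPM in naive knockout and 6364 ± 256 CPM in naive WT, and 3755 ± 339 CPM in day 14 knockout and 2467 ± 37.7 CPM in day 14 WT. For miR-181a-1-3p they were miR-30a-5p (r = 0.969), miR-200a-3p (r = 0.958) and miR-466g (r = 0.955). Within the family miR-181a-5p was most like miR-181b-5p (r = 0.978) and least like miR-181c-3p (r = 0.721). These correlations describe libraries that share stages and sequencing depth, and naive and Th2 libraries lie apart in both members.

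The second experiment was shallow, and naive Cre libraries B and C held only 596 and 2156 miRNA counts. Here only miR-181a-5p and miR-181a-2-3p passed the filter. miR-181a-5p had 275, 60, 28 and 79 counts in naive AGO2 knockout libraries, against 33, 3 and 4 in naive Cre libraries. After scaling these are 18433, 6975, 5544 and 13023 CPM in AGO2 knockout, against 4431, 3029.6 and 1458 CPM in Cre, and the groups do not overlap. The log2 fold change was 1.79 (SE 0.55, edgeR adjusted p = 0.0454), where 2.04% of 98 names were called higher. The call was lost without Cre B (1.95, edgeR adjusted p = 0.0962), Cre C (1.63, edgeR adjusted p = 0.282), knockout D (1.47, edgeR adjusted p = 0.0779) or knockout G (1.78, edgeR adjusted p = 0.111). It was also lost against library size alone (1.37, edgeR adjusted p = 0.105), with scaling to the STD entries (1.63, edgeR adjusted p = 0.0697) and with summed locus entries (1.92, edgeR adjusted p = 0.0721). With Cre B and C both left out, a choice made after seeing the data, it was 1.87 (edgeR adjusted p = 0.316).

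miR-181a-2-3p had 73, 22, 12 and 24 counts in naive AGO2 knockout libraries, against 11, 0 and 5 in naive Cre libraries. Its log2 fold change was 1.34 (SE 0.49, edgeR adjusted p = 0.105). Summed over libraries there were 29.6 miR-181a-2-3p counts per 100 miR-181a-5p counts in naive AGO2 knockout and 40 in naive Cre, and the ratios per library overlapped. The log2 ratio averaged -1.56 ± 0.31 in knockout (SD, n = 4) and -1.35 ± 1.56 in Cre (SD, n = 3; two-sided exact permutation p = 0.743, adjusted p = 0.964). In this experiment miR-181a-2-3p also outnumbered miR-181a-1-3p in naive cells, at 131 against 22 counts in AGO2 knockout and 16 against 2 in Cre.

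In Th2 cells of the second experiment miR-181a-5p had 21, 15, 119 and 43 counts in AGO2 knockout libraries, against 52, 47 and 21 in Cre libraries. These are 759, 1972, 3092 and 861 CPM in AGO2 knockout, against 735, 551 and 537 CPM in Cre, without overlap. The log2 fold change was 1.42 (SE 0.49, edgeR adjusted p = 0.0223), where 19.4% of 98 names were called higher. The call was lost without Cre A (1.24, edgeR adjusted p = 0.0889), Cre B (1.07, edgeR adjusted p = 0.155), Cre C (0.9, edgeR adjusted p = 0.218) or knockout F (0.92, edgeR adjusted p = 0.142). It was also lost with DESeq2 size factors (1.16, edgeR adjusted p = 0.0595), against library size alone (1.1, edgeR adjusted p = 0.0652), with summed locus entries (1.16, edgeR adjusted p = 0.111) and by DESeq2 (1.18, DESeq2 adjusted p = 0.0646). With scaling to the STD entries the change was turned to -0.41, where all names had a median of -1.59. miR-181a-2-3p had 1, 0, 4 and 2 counts in AGO2 knockout and 2, 0 and 0 in Cre, with a log2 fold change of 2.02 (SE 0.93, edgeR adjusted p = 0.0771) that rests on these few counts. Without Cre A, the only Cre library with a count, it was called (3.33, edgeR adjusted p = 0.032).

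miR-181a-2-3p was lower after activation here too. Per miRNA count it was 48.6 times as abundant in naive as in Th2 AGO2 knockout cells (131 and 7 counts, 95% counting interval 22.9 to 123) and 108 times in Cre cells (16 and 2 counts, interval 25.4 to 969). miR-181a-5p fell by 2.76 (SE 0.45, edgeR adjusted p = 4.64e-05) in AGO2 knockout and fell by 2.39 (SE 0.6, edgeR adjusted p = 0.00228) in Cre, and without naive Cre A the Cre change was -1.63 (edgeR adjusted p = 0.24). Both tested members were called lower in each genotype, where 13.3% of names were in AGO2 knockout and 19.4% in Cre, but miR-181a-2-3p passed the filter through its naive counts and so had to be lower at Th2. miR-181d-3p did not fall. It had 25 counts over the Th2 and 4 over the naive AGO2 knockout libraries, a ratio of 2.41 per miRNA count with a counting interval of 0.832 to 9.52 that includes equal levels. In Cre it had 67 counts over the Th2 and 0 over the naive libraries, at least 1.65-fold higher against a floor of 3 counts over the group. With scaling to the STD entries the Cre change of miR-181a-5p was turned to 0.25, against a median of 3.30 for all names. The difference of the AGO2 effect between Th2 and naive cells was called for neither member (edgeR adjusted p = 0.813 for miR-181a-5p and 0.597 for miR-181a-2-3p), where 12.2% of names were called.

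The d hairpin looked different in this experiment, and so did the 3p share of the whole family. The 3p strands took 24.1% to 31.2% of family counts in naive AGO2 knockout and 0% to 63.6% in naive Cre libraries. In Th2 libraries they took 5.56% to 44.4% in AGO2 knockout and 27.4% to 41.9% in Cre. The first experiment had 2.42% to 5.76% in naive AGO134 knockout and 9.16% to 12.9% in naive WT. At day 7 it had 3.79% to 5.68% in knockout and 3.89% to 5.28% in WT. In Th2 cells miR-181d-3p had 6, 0, 13 and 6 counts in AGO2 knockout libraries and 16, 30 and 21 in Cre libraries, while miR-181d-5p had 2, 1, 3 and 8 in AGO2 knockout and 22, 25 and 13 in Cre. The d hairpin had about as many 3p as 5p counts or more, at 179 counts per 100 in AGO2 knockout and 112 per 100 in Cre, summed over libraries. In day 7 Th2 cells of the first experiment the same figures were 3.12 in AGO134 knockout and 2.62 in WT. miR-181c-3p likewise outnumbered miR-181c-5p, at 15 against 3 counts in AGO2 knockout and 22 against 2 in Cre. Between AGO2 knockout and Cre the log2 ratio of the d hairpin was 0.34 ± 1.62 (SD, n = 4) and 0.16 ± 0.57 (SD, n = 3), with overlap (two-sided exact permutation p = 0.857, adjusted p = 0.964).

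**Figure D5:**
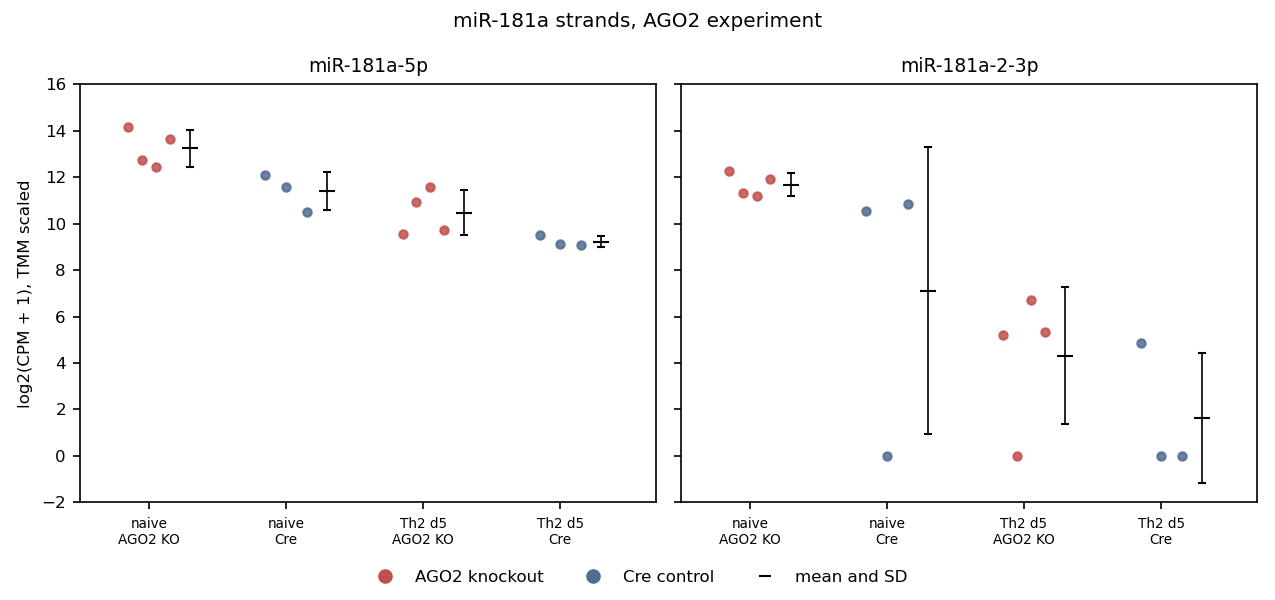
Levels of miR-181a-5p and miR-181a-2-3p in each library of the second experiment, as log2(CPM + 1) after TMM scaling, with the mean and SD (red, AGO2 knockout; blue, Cre). The naive points of miR-181a-2-3p are far above the Th2 points, except naive Cre library B with no count in 596.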

How the data were processed

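Small RNA was sequenced from 36 samples. The deposited tables hold, per the file headers, a whole-number count for every mature miRNA and locus. GRCm38 was the build, as the submitters' processing notes state. No aligner, counter or miRNA release is named there, and the sample labels say single-end where the series text says paired-end. Of the entries, 2110 name a miRNA and 9 are named STD. STD entries held 35.7% to 56.9% of all counts in the AGO134 experiment and 32.0% to 86.7% in the AGO2 experiment, and entered neither library sizes nor tests. For a mature name with several locus entries the entry with the highest total was used, so that miR-181a-5p has 81539 counts (81538 in its other entry) and miR-181b-5p 13810 (13228).

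Counts were fitted with edgeR 4.0.16 in R 4.3.3 (quasi-likelihood, TMM, filterByExpr with a minimum count of 10), fitting all groups of an experiment together without a replicate block. The fit was tested on simulated data. Groups follow the genotype and culture labels. Strand ratios used a pseudocount of 0.5 and two-sided exact permutation tests. All 10 members are described. Of the T cell list, up to 4 names called per comparison, those of smallest adjusted p, could be given values, and resemblance names the 3 highest correlations with miR-181a-5p and with miR-181a-1-3p. The members and lists were chosen with earlier results of these data known. Alternatives were other scalings, no filter, DESeq2 1.42.0, the compared groups alone, summed locus entries, a replicate block, thinning, a pseudocount of 1 and single libraries left out. Among 48 pairs of replicates the lowest chi-square per degree of freedom was 2.17, so replicates differed by more than counting error. That does not tell whether they came from separate animals. Each library was treated as its own sample.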

Additional observations from a re-analysis of the deposited data

Results flagged for a closer look

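The level of miR-181d-3p in day 7 AGO134 knockout replicate 3, 32.9 CPM from 6 counts, stood apart from the other 3 libraries of its group. Of 42 groups of 4 libraries looked at in this way 1 had such a library, and chance flags about 1 in 20.

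The AGO134 knockout effect differed between stages for 3 members, by edgeR's test of the difference. For miR-181a-5p it was -0.86 on the log2 scale at day 7 against naive and 0.93 at day 14 against day 7. For miR-181b-5p it was 1.21 at day 14 against naive and 1.29 at day 14 against day 7. For miR-181a-1-3p it was 1.82 at day 14 against naive.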

How the results depend on the processing

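Depth limits the AGO2 experiment, where a count of 0 allows 51.4 to 5033.6 CPM before TMM scaling and 2 members could be tested. The choice of scaling limits absolute directions in both experiments: over all names 31 were higher and 39 lower in naive AGO134 knockout cells with TMM, 8 and 80 by library size, and 0 and 204 with STD scaling. At day 7 these splits were 33 and 22, 4 and 43, and 1 and 128, and at day 14 34 and 41, 22 and 54, and 2 and 72.

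The larger changes in the count of members called were as follows, and the cause was not tested. Small changes are not listed. With STD scaling 8 members were called in naive AGO134 knockout against WT cells, 3 at day 7, 0 at day 14, 0 in naive and 0 in Th2 AGO2 knockout against Cre cells, 1 from naive to Th2 Cre cells, 0 for the AGO134 effect at day 7 against naive and 1 for the AGO2 effect at Th2 against naive. By library size 2 were called at day 7 in the AGO134 experiment, and 0 in naive and 0 in Th2 cells of the AGO2 experiment. With DESeq2 size factors and with DESeq2 1 was called at day 14, 1 for the AGO134 effect at day 14 against day 7, and 0 in Th2 AGO2 knockout cells. With summed locus entries 0 were called in naive and 0 in Th2 AGO2 knockout cells. Without the filter 3 were called in Th2 AGO2 knockout cells and 4 from naive to Th2 Cre cells, and with the compared groups alone 2 and 1. With naive Cre B and C left out, chosen after seeing the data, 0 were called in naive AGO2 knockout cells.

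With STD scaling the sign was turned for miR-181a-5p in naive AGO134 knockout (-0.26) and Th2 AGO2 knockout cells (-0.41) and from naive to Th2 Cre cells (0.25), and for miR-181c-3p from naive to day 7 knockout cells (0.23).

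Thinning turned the sign of differences in log2 strand ratio at day 7 for a-1 (-0.07), c (0.07), d (-0.04) and b to a (0.25), and in the AGO2 experiment for a-1 in Th2 (-0.26) and a-2 in naive cells (1.04). A pseudocount of 1 gave 0.0 for b to a at day 7, and summed locus entries 0.2 for b to a in naive AGO2 knockout cells.

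Leaving out 1 library at a time gave 1 to 2 members called at day 14. In AGO2 knockout it gave 0 to 1 in naive and 0 to 1 in Th2 cells. It gave 8 to 9 from naive to day 7 in AGO134 knockout. From day 7 to day 14 it gave 4 to 7 in knockout and 6 to 7 in WT. From naive to Th2 Cre cells it gave 1 to 2. For the AGO134 effect it gave 0 to 2 at day 7 against naive. At day 14 it gave 2 to 3 for that effect against naive and 1 to 2 against day 7. Ratio differences that changed sign ranged for a-1 from -0.07 to 0.18 at day 7 and -0.13 to 0.24 at day 14, for d from -0.02 to 0.45 in naive, -0.08 to 0.54 at day 7 and -0.32 to 0.32 at day 14, and -0.36 to 0.82 in Th2 AGO2 cells, for a-2 from -0.93 to 0.62 in naive AGO2 cells, and for b to a from -0.1 to 0.09 at day 7 and -1.62 to 0.01 in naive AGO2 cells. The naive differences stayed between -1.89 and -1.32 for a-1, -1.69 and -1.16 for a-2, and -0.82 and -0.69 for c.

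Samples of the same replicate number showed little likeness: 5 of 50 same-number pairs correlated above 0.1 in the AGO134 experiment and 2 of 7 in the AGO2 experiment. Whether such samples came from the same animal cannot be told from this, and the main fit did not pair them. With a replicate block the count of members called was equal or close to that of the main fit in all 15 comparisons it could be fitted to. It was 4 in naive, 0 in day 7 and 2 in day 14 knockout against WT cells. Over all names the block gave 22 higher and 12 lower for the AGO134 effect at day 14 against naive, and 3 higher and 0 lower for the AGO2 effect. It could not be fitted to AGO2 knockout against Cre, since replicate letters do not cross genotypes.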
